A study of Mus musculus with 8 samples.

Results

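The Crumbs proteins and the scaffold proteins that bind them form a polarity complex at the apical junctions of epithelia and of the retina. The 7 genes described here, Crb1, Crb2, Crb3, Pals1, Patj, Mpp3 and Mpp4, were taken as the rows of the deposited count table that carry a listed symbol. Of these, 6 were found by that symbol. Pals1 stands in the table under its older symbol Mpp5 (Entrez gene 56217) and is called Mpp5 below. They are 7 of the 25477 genes of the table, and all 7 passed the filter on low counts. The list was drawn up with the difference between knockout and control in these libraries known, above all that of Crb1. That difference is therefore described for the members without a test.

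Polyadenylated RNA of 8 mouse (Mus musculus) retina samples was sequenced. The tested genotype, given as PD-L1 knockout in samples titled KO-CNV, had 4 libraries, and the other 4, titled WT-CNV, were given as control. All 8 titles name choroidal neovascularization (CNV), the growth of new choroidal vessels towards the retina, so there is no retina without it. PD-L1, encoded by Cd274, is a cell-surface ligand that restrains immune cells. The sources used here do not give the strain, age, number of animals, extent of the deletion or way in which CNV was induced. The labels do not state whether each sample is a different animal, so the spread between libraries may be technical.

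In the retina the Crumbs complex sits just above the adherens junctions that join photoreceptors to Müller glia, the radial support cells, and this row of junctions is the outer limiting membrane. Crb1 and Crb2 are large transmembrane proteins with long extracellular parts, and Crb3 is a small relative found in most epithelia. Their short cytoplasmic tails bind Pals1 through a motif at the very end, and Pals1 in turn binds Patj, Mpp3 and Mpp4. In humans, mutations of CRB1 cause retinal dystrophies, and mice lacking Crb1 lose the integrity of the outer limiting membrane in patches.

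The shared tail can be seen at the end of the coding sequences of the 3 Crumbs genes. The last 60 coding bases of 1 reference transcript of each are shown because they encode the tip through which all 3 proteins bind the same partner. The capitals mark the last 15 bases, which hold the binding motif and the stop codon. The sequences are those of GENCODE M21 on the assembly GRCm38, read 5′ to 3′ on the coding strand, at chr1:139198572-139198631 (minus strand) for Crb1, chr2:37796613-37796672 (plus strand) for Crb2 and chr17:57065237-57065296 (plus strand) for Crb3.
Crb1-201: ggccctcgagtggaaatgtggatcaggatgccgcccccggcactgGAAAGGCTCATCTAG
Crb2-201: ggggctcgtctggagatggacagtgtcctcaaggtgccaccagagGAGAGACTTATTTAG
Crb3-201: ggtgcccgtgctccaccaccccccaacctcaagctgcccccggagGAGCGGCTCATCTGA
Crb1 and Crb2 were identical at 32 of these 60 bases, Crb1 and Crb3 at 27 and Crb2 and Crb3 at 33. In the 15 capitals, Crb1 shared 11 bases with Crb2 and 11 with Crb3, while Crb2 and Crb3 shared 9.

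Crb1 has 3 coding transcripts in that annotation, and they do not share this end. Crb1-201 spans 139197056 to 139377077 on chromosome 1 and has 12 exons. Crb1-204 and Crb1-202 end earlier, at 139229538 and 139247664, and so lack the tail printed above. The 3 begin between 139377041 and 139377100. The deposited values are 1 count per gene, so they do not show which of these transcripts the reads came from. The RefSeq promoter of Crb1, 250 bases before to 50 after an annotated start, is shown because Crb1 is the member with the largest difference. It lies at chr1:139377027-139377326 on the minus strand of GRCm38.p6. The RefSeq span of the gene reaches further upstream, to 139379316, so this start is not the outermost.
Crb1 promoter: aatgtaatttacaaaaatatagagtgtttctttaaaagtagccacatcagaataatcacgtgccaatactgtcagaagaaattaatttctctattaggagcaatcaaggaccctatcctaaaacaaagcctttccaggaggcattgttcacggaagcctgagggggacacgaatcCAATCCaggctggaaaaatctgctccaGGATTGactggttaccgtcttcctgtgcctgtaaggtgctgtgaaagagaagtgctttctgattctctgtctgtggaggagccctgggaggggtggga
The capitals mark the matches to CAATCC, a variant of the site of the photoreceptor factor Crx, searched together with its core TAATCC on both strands after the sequence had been seen. The motifs can share up to 2 bases at their ends, and those marked share none. CAATCC was found on the plus strand from base -75 and on the minus strand from base -48 relative to the start, and TAATCC was not found. Of 32851 mouse promoters of this length, 10.4% held CAATCC, 7.06% held TAATCC and 1.72% held at least 2 matches of either. Of the other members with a promoter in RefSeq's table, 1 of the 2 promoters of Mpp4 held TAATCC, and neither motif was found for Crb2, Crb3 or Patj. A match describes the letters only.

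Each library held between 31743404 and 36438248 counts. Cd274 had 12, 15, 9 and 11 counts in the knockout libraries, against 148, 117, 153 and 165 in the control libraries (log2 fold change -3.73, SE 0.27, edgeR adjusted p = 1.6e-05). Of 16861 genes tested, 430 (2.55%) passed an adjusted p of 0.05 in edgeR's quasi-likelihood test, 203 higher and 227 lower in the knockout. Scaled by library totals alone, 207 genes were higher and 131 lower. The count depended on single libraries. It was 204, 108 and 216 without knockout 2, 3 and 4, and 162, 143, 130 and 3209 without control 1, 2, 3 and 4. Lens transcripts (16 genes) summed to 2752.6 CPM (TMM-scaled counts relative to library size) in knockout 3 and to 6471 and 1882 CPM in controls 2 and 3, against 4.15 to 49.0 CPM in the other 5 libraries. Without those 3 libraries, with knockouts 1, 2 and 4 and controls 1 and 4 left, 15 genes passed. Fewer libraries and less lens transcript cannot be told apart in that fit. With all 8 libraries and the lens sum as a covariate, 267 passed. Of the sex-linked genes listed, the Y-linked Kdm5d had 963, 452, 577 and 874 counts in the knockout libraries, against 0, 4, 2 and 0 in the controls, while Eif2s3y, also Y-linked, had at most 1 count in any knockout library and at most 6 in any control. Xist, made from the inactive X chromosome of females, was at 2730.1 to 3460.5 CPM in the knockout and 3213 to 5148 CPM in the control.

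Crb1 transcript stood well below its control level in every knockout library. It had 7022, 6770, 6780 and 7040 counts in knockout libraries 1 to 4, against 15074, 12730, 15592 and 15755 counts in control libraries 1 to 4. In CPM these were 198, 196, 190 and 201 in the knockout, against 472, 400, 480.1 and 466 in the control. The groups lay far apart, with the highest knockout library below the lowest control, control 2, and the knockout libraries were almost level. The mean was 196 ± 4.87 CPM in knockout retinas and 455 ± 37.0 CPM in control retinas (SD, n = 4 each). The log2 fold change was -1.21 (SE 0.09), which is 43.2% of the control level. In whole retina, fewer cells that express a gene and less RNA per cell cannot be told apart.

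Over 21 other settings Crb1 had a log2 fold change between -1.26 and -1.09. It was -1.23 without the 3 libraries rich in lens transcript. Among the 2314 tested genes that averaged at least 100 CPM, Crb1 ranked 5 from the lowest log2 fold change. The choice of Crb1 from this contrast favours such a rank, so it is a description only. The median log2 fold change of all tested genes was -0.0011.

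**Figure D1:**
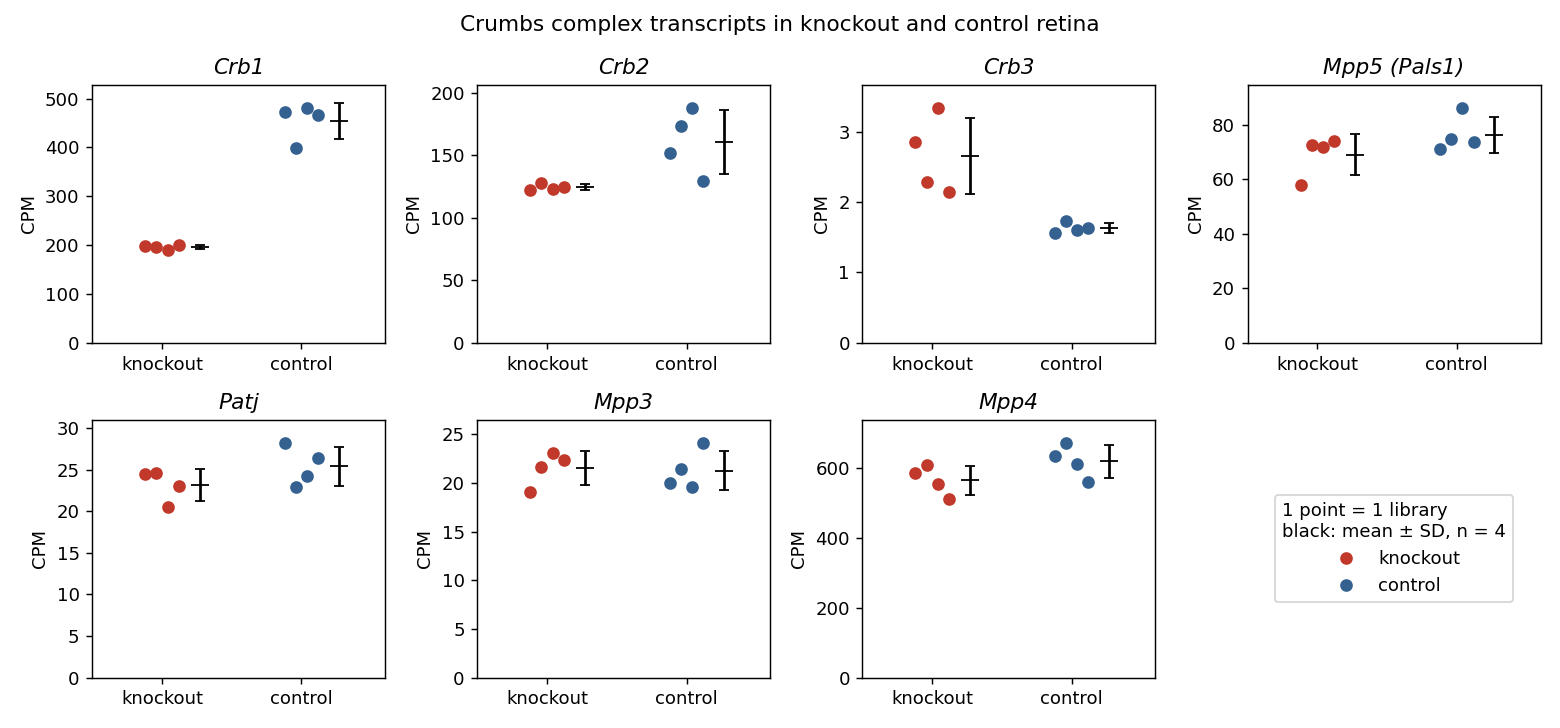
Level of each of the 7 genes in CPM (vertical axes, each from 0) in the 4 knockout and 4 control libraries; each point is 1 library and the black mark is the mean ± SD. The Crb1 points form 2 separate groups near 196 and 455 CPM, Crb2 and Crb3 are apart by small gaps, and the other 4 genes overlap.

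Crb2, the closest relative of Crb1 in structure, had a smaller difference of the same sign. It had 4318, 4405, 4409 and 4355 counts in the knockout libraries, against 4859, 5526, 6093 and 4369 counts in the control libraries. In CPM the knockout libraries stood at 122, 128, 123 and 124 and the controls at 152, 173, 188 and 129. The groups did not overlap, but control 4 lay only just above the highest knockout library. The means were 124 ± 2.38 CPM in knockout retinas and 161 ± 25.5 CPM in control retinas (SD, n = 4 each), and the log2 fold change was -0.37 (SE 0.11). It was -0.46 without control 4 and -0.17 without the 3 libraries rich in lens transcript. By GENCODE, 113 bases of Crb2 exons lie within the span of Dennd1a on the opposite strand, where reads may not be assigned to 1 gene with certainty. Dennd1a had a log2 fold change of -0.06.

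Crb3 was the rarest of the 3 and pointed the other way. It had 101, 79, 119 and 75 counts in the knockout libraries, against 50, 55, 52 and 55 counts in the control libraries. That is 2.85, 2.29, 3.33 and 2.14 CPM in the knockout, against 1.57, 1.73, 1.6 and 1.63 CPM in control retinas. All 4 knockout libraries were above all 4 controls, and the controls were nearly equal. The log2 fold change was 0.70 (SE 0.24), and 0.42 on the log2(FPKM + 1) scale, which understates changes of low genes. By GENCODE, 49 bases of Crb3 exons lie within the span of Slc25a23 and 14 within that of Dennd1c, both on the opposite strand. With the strand setting of the counting unknown, reads of these genes may not be told apart there. By RefSeq positions, Crb3 (57062201 to 57065918) lies between Slc25a23, which ends at 57059909, and Dennd1c, which starts at 57066051. Slc25a23 averaged 159.7 CPM in knockout retinas and 141 CPM in control retinas, and Dennd1c 0.433 CPM in knockout retinas and 0.161 CPM in control retinas.

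Pals1, listed as Mpp5, is the adaptor that links the Crumbs tail to the other scaffold proteins. It had 57.9, 72.5, 72.0 and 74.1 CPM in the knockout libraries, against 71.1, 74.9, 86.0 and 73.6 CPM in the control libraries. Knockout 1 was low beside the other 7 libraries, and the groups overlapped. The log2 fold change was -0.15 (SE 0.10), and -0.08 without knockout 1. Without control 3 it was -0.09, and without the 3 libraries rich in lens transcript it was -0.08.

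Patj, a protein of many PDZ domains that Pals1 recruits, had 24.5, 24.6, 20.5 and 23.1 CPM in the knockout libraries, against 28.2, 22.9, 24.2 and 26.4 CPM in the control libraries. The groups overlapped, with knockout 3 lowest and control 1 highest. Its log2 fold change was -0.13 (SE 0.11), and -0.08 when either of those 2 libraries was left out. With the lens sum as a covariate it was -0.23.

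Mpp3 is a scaffold found with the Crumbs complex at the outer limiting membrane, where its loss in mice weakens the junctions. It had 19.1, 21.6, 23.1 and 22.4 CPM in the knockout libraries, against 20.1, 21.4, 19.6 and 24.1 CPM in the control libraries. The groups overlapped completely. The log2 fold change was 0.02 (SE 0.11), and its sign turned in 4 of 21 other settings.

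Mpp4 is a scaffold of photoreceptors that is found at their synaptic terminals as well as at the junctions. It had 586, 610.4, 556 and 513 CPM in the knockout libraries, against 635, 672, 613 and 561 CPM in the control libraries. The groups overlapped, with the lowest level of each group in library 4. The log2 fold change was -0.13 (SE 0.09). It was -0.09 without knockout 4, -0.08 without control 2 and -0.06 without the 3 libraries rich in lens transcript.

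In all, 1 of the 7 genes passed the threshold, where 2.55% of all tested genes did. Lower in the knockout past the threshold were 1.35% of all tested genes, and higher 1.2%. For 3 of the 7 (Crb1, Crb2 and Crb3) the 4 knockout libraries did not overlap the 4 controls in CPM, where 11% of all tested genes had groups apart. Nothing is read from these counts, since the genes were chosen from the same contrast.

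**Figure D2:**
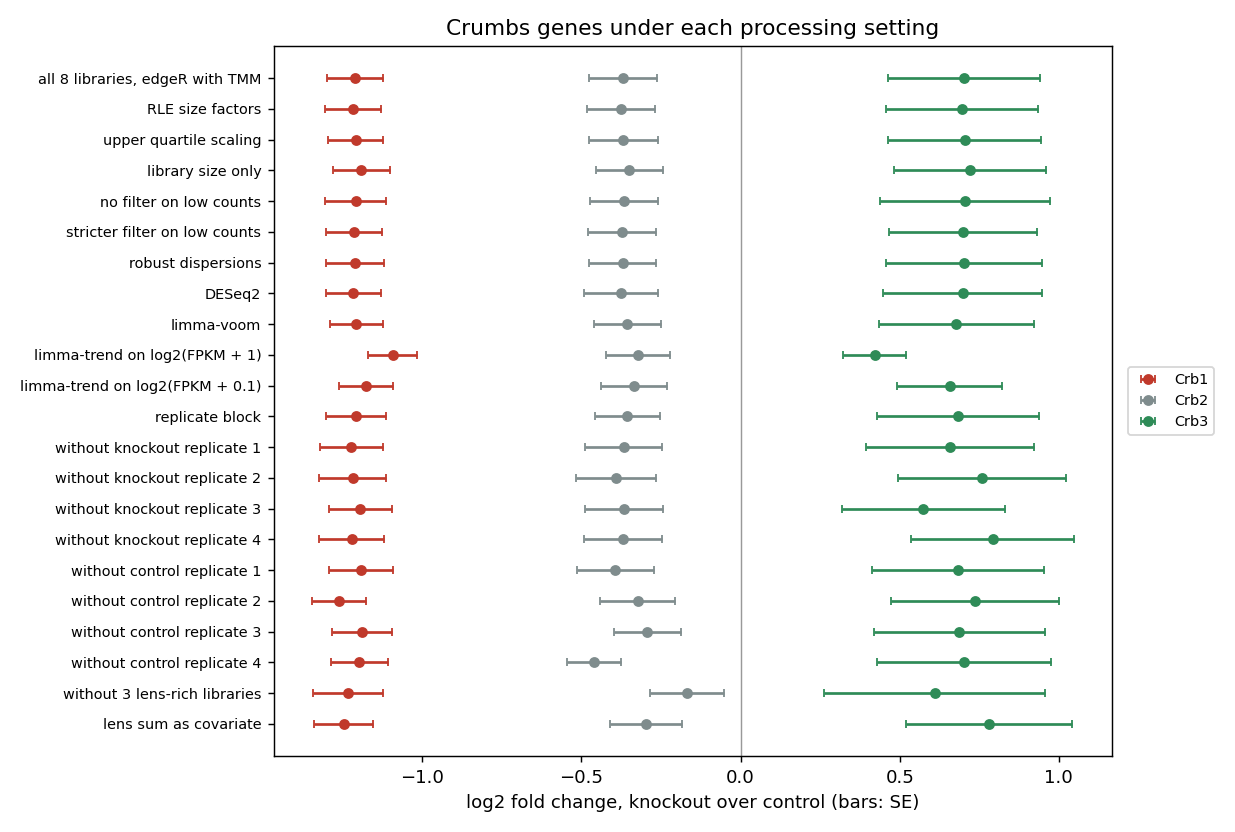
Log2 fold change of Crb1, Crb2 and Crb3, knockout over control (horizontal axis, bars are the SE), under the fit with all 8 libraries and each of 21 other settings (rows). Crb1 lies between -1.26 and -1.09, Crb2 between -0.46 and -0.17 and Crb3 between 0.42 and 0.79.

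The order of the levels was read per gene length from the deposited FPKM (fragments scaled to gene length and library total). In the knockout the order was Mpp4 at 185 ± 15, Crb2 at 19.7 ± 0.459, Mpp5 at 12.3 ± 1.14, Crb1 at 7.83 ± 0.353, Mpp3 at 6.47 ± 0.398, Patj at 2.49 ± 0.252 and Crb3 at 1.9 ± 0.378 FPKM (mean ± SD, n = 4). In the control it was Mpp4 at 199.6 ± 14.6, Crb2 at 25.0 ± 3.88, Crb1 at 17.9 ± 1.57, Mpp5 at 13.4 ± 1.12, Mpp3 at 6.31 ± 0.590, Patj at 2.7 ± 0.274 and Crb3 at 1.15 ± 0.0392 FPKM. Crb1 thus stood above Mpp5 in the control and below it in the knockout. Neighbours in the order did not overlap across libraries, except Patj and Crb3 in the knockout.

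The place of Crb1 in that order depends on the gene length behind the FPKM. The deposited FPKM of Crb1 implies a length of 25256 bases. The longest GENCODE coding transcript has 6135 bases, and all Crb1 exons in GENCODE together cover 14432 bases. RefSeq gives Crb1 a wider span (139176649 to 139379316) than GENCODE does (139197056 to 139377100). For Crb2 the implied length of 6372 bases equals that of its coding transcript, and for Mpp4 it is 3087 bases beside 2982 bases. When counts were instead divided by the longest coding transcript, a choice made after seeing the data, Crb1 averaged 32.2 ± 1.45 in the knockout and 73.6 ± 6.46 in the control (counts per kilobase of that transcript, scaled to the library total as FPKM are, SD, n = 4 each). That put it in the second place, behind Mpp4 and above Crb2, in both groups. The annotation behind the counts is not given, so Crb1 counts may include reads from outside that transcript. This scale may therefore overstate Crb1. The difference between the groups is not touched by the choice of length, since 1 length is used for a gene in every library.

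Among the 3 Crumbs genes, Crb1 held a smaller share of the summed level in every knockout library than in every control. By the deposited FPKM, Crb1 made up 27.1%, 26.4%, 25.7% and 27.4% in the knockout libraries, against 42.8%, 35.7%, 38.3% and 46.3% in the control libraries. Crb2 made up 65.9% to 68.1% in the knockout and 50.8% to 61.5% in the control. As parts of 1 sum, the shares are tied to each other. The level of Crb2 itself was lower in the knockout, at 19.7 FPKM on average against 25.0 FPKM in the control. The share of Crb3 was 5.26% to 8.1% in the knockout and 2.3% to 2.9% in the control. With the longest coding transcript as length, Crb1 made up 59.6% ± 1.00 in the knockout and 73.6% ± 3.72 in the control (SD, n = 4 each). Reads counted for Crb1 from outside that transcript would raise these shares. The Crb1 share was thus lower in the knockout on both scales, while the most abundant Crumbs gene was Crb2 on the first and Crb1 on the second.

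**Figure D3:**
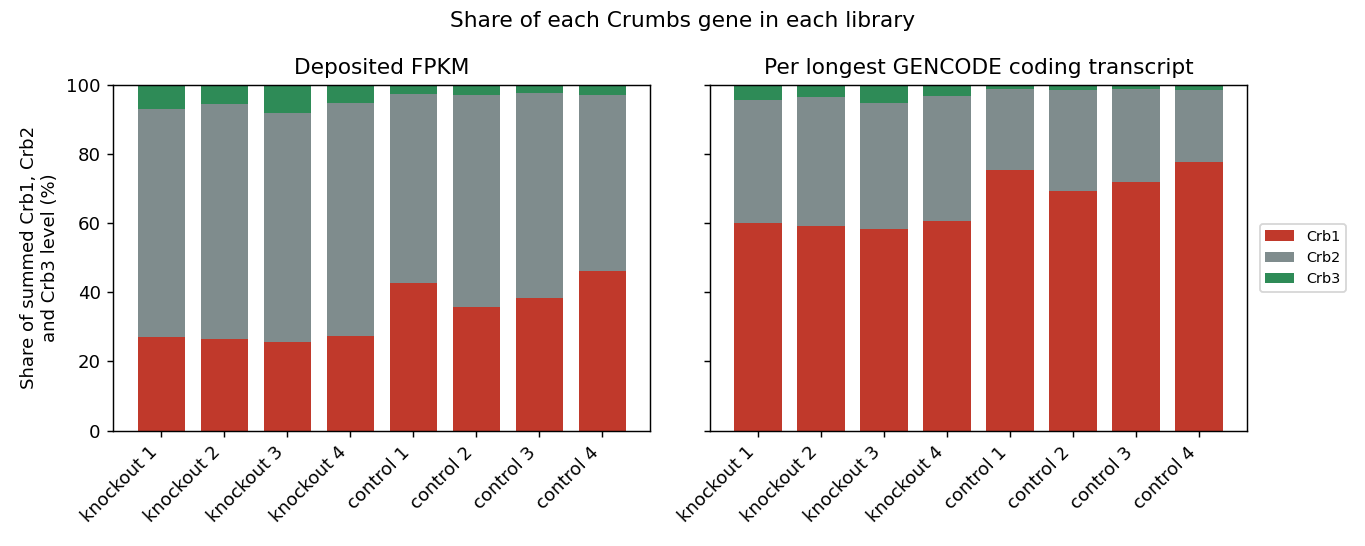
Share of Crb1, Crb2 and Crb3 in their summed level (vertical axis, percent) in each library, knockout libraries on the left of each panel, by the deposited FPKM and by counts per kilobase of the longest GENCODE coding transcript. The Crb1 part is smaller in the 4 knockout libraries on both scales, at 26.6% against 40.8% on average by FPKM and at 59.6% against 73.6% per coding transcript.

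The profiles of the members over the 8 libraries were compared, and they include the difference between knockout and control. The distances of Crb1 therefore hold its fold change, by which the list was drawn up. They do not show whether the members vary together. Likeness was measured as the root mean square difference between log2 CPM profiles, each centred on its own mean over the 8 libraries, so that 0 means the same pattern. The closest pair was Patj and Mpp4 at 0.15, followed by Mpp5 and Mpp3 at 0.16 and Crb2 and Mpp4 at 0.17. Crb1 was nearest to Crb2, at 0.46, and farthest from Crb3, at 0.96. Within the knockout, Crb1 deviated from its group mean by at most 0.05 in log2 units (knockout 3), and within the control by at most 0.18 (control 2, below). Crb2 deviated most in control 4, by -0.30, and in control 3, by 0.24.

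Among 13272 other genes with names and a mean of at least 1 CPM, 5 had the pattern most like that of Crb1. Col4a3, a chain of the collagen of basement membranes, was nearest at 0.13, with 13.1 ± 0.514 CPM in knockout retinas and 31.2 ± 5.01 CPM in control retinas. Tmem254a, at 0.14, had 6.68 ± 0.285 CPM in knockout retinas and 15.3 ± 1.81 CPM in control retinas. Zfp932, a zinc finger gene at 0.20, had 60.6 ± 8.18 CPM in knockout retinas and 114 ± 8.71 CPM in control retinas. Hhipl2 (0.22) and Slc5a8, a monocarboxylate transporter (0.24), completed the 5, with 0.967 ± 0.104 and 6.32 ± 0.787 CPM in knockout retinas and 1.91 ± 0.201 and 12.5 ± 2.15 CPM in control retinas (SD, n = 4 each). In all 5 the knockout libraries lay wholly below the controls, as the way of choosing them favours. Col4a3 and Hhipl2 lie on chromosome 1 like Crb1, at 82586921 to 82722059 and 183414463 to 183437053, and the other 3 on chromosomes 14, 5 and 10.

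Of the members, Crb1 (139176649 to 139379316) and Mpp4 (59120935 to 59163389) share chromosome 1 of GRCm38.p6. The other 5 lie on chromosomes 2 (Crb2), 17 (Crb3), 12 (Mpp5), 4 (Patj) and 11 (Mpp3). No annotated GENCODE gene overlaps Crb1. Of 18 other genes within 2 Mb of it, 11 were tested, and 1 was higher and 1 lower in the knockout (18.2% of the 11, beside 2.55% of all tested genes). Within 5 Mb, 2 were higher and 3 lower of 56 tested (8.93%).

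Zbtb41, a zinc finger gene and the nearest tested gene on the right at 42.7 kb, had 27.4, 30.0, 29.4 and 33.1 CPM in the knockout libraries, against 40.1, 39.1, 41.7 and 39.2 CPM in the control libraries. All knockout libraries were below all controls (log2 fold change -0.42, SE 0.09, edgeR adjusted p = 0.0291). Dennd1b, a regulator of membrane traffic whose end lies 0.606 kb to the left, had 30.4 ± 2.66 CPM in knockout retinas and 34.4 ± 2.28 CPM in control retinas (SD, n = 4 each; log2 fold change -0.18, SE 0.09, edgeR adjusted p = 0.293). The call of Zbtb41 ended without any single library except knockout 4 or control 4 (adjusted p up to 0.117), and with the title number as a block. Without the 3 libraries rich in lens transcript it did not pass. Within 2 Mb the count of 2 was 1 without knockout 1 or 4 or control 2, and 0 without knockout 2 or 3 or control 1 or 3.

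Other genes of cell polarity and junctions passed the threshold at a share near that of all genes. Of 82 listed genes in 8 groups, 80 were tested. Of these, 3 rose, none fell and 77 did not pass, that is 3.75% beside 2.55% of all tested genes. The median log2 fold change was 0.05, beside -0.0011 for all tested genes. An unadjusted p under 0.05 was reached by 18 genes, and DESeq2 called 7, of which 6 were higher and 1 lower, and limma-voom 2. Over all genes DESeq2 called 1392 of 15549 and limma-voom 480 of 16861. The share of all genes with an unadjusted p under 0.05 is not given here, so nothing is read from those counts. The count of 3 was 0 without knockout 2, 3 or 4 or control 2 or 3, and 14 without control 4, of which 13 were higher and 1 lower. It was 1 with the title number as a block, and 0 without the 3 libraries rich in lens transcript.

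The adherens junction genes of the outer limiting membrane held 2 of the 3. Of 18 tested, F11r and Cdh3 rose, 16 did not pass, and the median was 0.07. F11r, a junctional adhesion molecule, had 9.41, 8.2, 9.04 and 10.002 CPM in the knockout libraries, against 6.33, 5.46, 5.97 and 4.23 CPM in the control libraries. All knockout libraries were above all controls (log2 fold change 0.74, SE 0.16, edgeR adjusted p = 0.034). Cdh3, which encodes P-cadherin, had 1.13, 4.2, 3.39 and 3.06 CPM in the knockout libraries, against 1.22, 0.879, 0.308 and 0.444 CPM in the control libraries. Its groups overlapped, with knockout 1 below control 1 (log2 fold change 2.04, SE 0.46, edgeR adjusted p = 0.0403, and 0.54 on the log2(FPKM + 1) scale). P-cadherin is abundant in pigment epithelium. The 10 markers of that tissue summed to 106, 197, 223 and 231 CPM in the knockout libraries, against 231, 169, 106 and 72.2 CPM in the control libraries. They went both ways, none past the threshold. Their log2 fold changes were 0.98 (Rpe65), 0.96 (Ttr), 0.89 (Lrat), 0.54 (Best1) and 0.08 (Tyr). The others stood at -0.31 (Dct), -0.44 (Tyrp1), -0.45 (Slc45a2), -0.58 (Pmel) and -0.86 (Mlana). Their part in the Cdh3 difference was not tested. The call of F11r ended without any single library except control 4 (adjusted p up to 0.110), and that of Cdh3 when knockout 2, 3 or 4 or control 2 or 3 was left out (highest adjusted p 0.135).

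Among the Lin7, Mpdz and FERM partners, which bind the scaffold proteins or the Crumbs tail, 1 of 9 rose. Msn encodes moesin, a link between membrane proteins and actin. It had 38.5, 41.0, 50.01 and 49.4 CPM in the knockout libraries, against 32.6, 26.7, 29.4 and 35.6 CPM in the control libraries. The groups did not overlap (log2 fold change 0.52, SE 0.12, edgeR adjusted p = 0.0381). The call was lost when any library other than knockout 1 or control 4 was left out (highest adjusted p 0.144).

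In the other 6 groups no gene passed edgeR's adjusted threshold. The gene with the smallest p among 5 other Pals-type scaffolds was Mpp2, at 111 ± 8.13 CPM in knockout retinas and 78.2 ± 23.0 CPM in control retinas (log2 fold change 0.51, SE 0.16, edgeR adjusted p = 0.0999). Control 4, at 111.5 CPM, lay within the knockout range, and without it Mpp2 passed with a log2 fold change of 0.73, while the value was 0.26 without the 3 libraries rich in lens transcript. In the Par and aPKC complex, which acts next to Crumbs at the apical membrane, 8 genes were tested, with a median of 0.10. Its lowest p was that of Pard6g (log2 fold change 0.42, SE 0.17, edgeR adjusted p = 0.19). In the Scribble complex, which opposes both from the basolateral side, 8 genes had a median of -0.01. Dlg4, which is abundant at photoreceptor synapses, had 813 ± 91.1 CPM in knockout retinas and 988 ± 58.1 CPM in control retinas (log2 fold change -0.28, SE 0.10, edgeR adjusted p = 0.142), and it passed without control 4 (-0.32). In each of these 3 groups 1 gene had an unadjusted p under 0.05, and DESeq2 called 1, 0 and 1 of them and limma-voom none.

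The Hippo pathway, a growth control that Crumbs is known to influence, had 18 genes tested with a median of 0.05. Ccn1, a target of its effector Yap, had 4.33 ± 0.611 CPM in knockout retinas and 2.47 ± 0.877 CPM in control retinas (log2 fold change 0.81, SE 0.26, edgeR adjusted p = 0.114). Of 7 genes of Crumbs trafficking, Exoc4, a subunit of the exocyst, had the lowest p (log2 fold change 0.38, SE 0.13, edgeR adjusted p = 0.119). Exoc4 passed without control 4 (0.49) and stood at 0.15 without the 3 libraries rich in lens transcript, where Ccn1 stood at 0.45. Of 7 partners of Mpp4 or proteins of the photoreceptor synapse, Pclo, a scaffold of the presynaptic zone, had 183 ± 21.5 CPM in knockout retinas and 221 ± 38.2 CPM in control retinas (log2 fold change -0.28, SE 0.13, edgeR adjusted p = 0.245). Unadjusted p values under 0.05 were found for 4, 1 and 0 genes of these 3 groups, and DESeq2 called 1, 0 and 0 and limma-voom none.

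**Figure D4:**
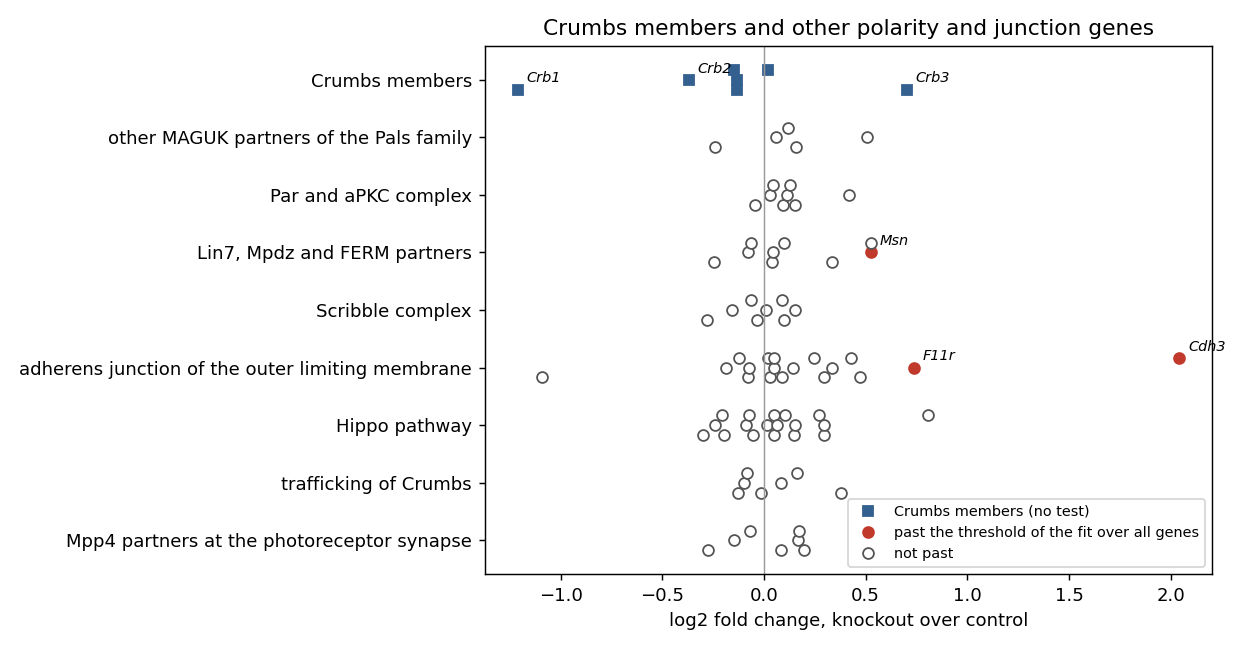
Log2 fold change, knockout over control (horizontal axis), of the 7 Crumbs genes and of the 80 tested polarity and junction genes in 8 groups (rows; the vertical spread within a row only separates points); the Crumbs genes are squares, given without a test, and filled circles passed the adjusted threshold. Crb1 lies to the left at -1.21, and F11r, Cdh3 and Msn are the filled circles, to the right of 0.

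Transcripts of the cells that carry the Crumbs complex were present in every library, in keeping with the label retina. The 12 rod markers summed to 46910.1 to 65522 CPM in knockout retinas and 48729 to 59733 CPM in control retinas. None passed in edgeR's test, where 2 had an unadjusted p under 0.05 and DESeq2 called 2 and limma-voom none. The 10 cone markers summed to 1506 to 1849 CPM in knockout retinas and 1654 to 1838 CPM in control retinas. Of these, Arr3, cone arrestin, fell (log2 fold change -0.45, SE 0.10, edgeR adjusted p = 0.0375) and 9 did not pass. Among the cone markers 3 had an unadjusted p under 0.05, and DESeq2 and limma-voom each called 2. The 12 Müller glia markers summed to 4519.9 to 6159 CPM in knockout retinas and 4197 to 5235 CPM in control retinas. Of these, 2 rose and none fell: Crym, a thyroid hormone-binding protein, by 0.71 (SE 0.11, edgeR adjusted p = 0.0073) and Rgr, an opsin that pigment epithelium also makes, by 1.06 (SE 0.25, edgeR adjusted p = 0.0444). The median log2 fold change of the 12 was 0.27, 6 had an unadjusted p under 0.05, and DESeq2 called 5 and limma-voom 2. Beside these counts of the rod, cone and glial markers, 2.55% of all tested genes passed in edgeR's test. DESeq2 called 1392 of 15549 genes in all and limma-voom 480 of 16861. The share of all genes with an unadjusted p under 0.05 is not given here, so nothing is read from the unadjusted counts of these markers. The summed ranges of all 3 cell types thus overlapped between the groups, while those of Crb1 did not. The 5 haemoglobin and red cell genes summed to 1.68 to 4.03 CPM in knockout retinas and 10.1 to 14.5 CPM in control retinas. All 4 of them that were tested were lower past edgeR's threshold, beside 1.35% of all tested genes. The part of the glial, cone and red cell markers and of Kdm5d in the Crb1 difference was not tested.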

How the data were processed

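The submitters' processing notes name fastp, HISAT2, HTSeq and mm10. None of the sources used here gives versions, annotation, strand setting or filters. In the count table the authors deposited raw counts for each gene, and the deposited FPKM table holds the same counts scaled by the authors to gene length and library total. Columns were matched to samples by title. Counts were tested with edgeR 4.0.16 in R 4.3.3 (TMM factors, filterByExpr with minimum count 10 and total 15, quasi-likelihood F test without covariates or robust dispersions, two-sided, Benjamini-Hochberg adjustment over 16861 genes, threshold 0.05). A log2 fold change is knockout over control, and its SE was obtained as the size of that change over the root of F. CPM use TMM-scaled totals, and profiles use log2 CPM with a prior count of 2. One count is 0.028 to 0.0314 CPM. Spreads do not cover PCR duplicates.

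Members and lists were chosen with earlier results of these data known. Of the polarity lists, 81 of 82 symbols matched, through RefSeq synonyms for 1, and Nherf1 was not analysed here. Named genes are the members, up to 3 genes past the threshold per polarity list or the 1 with the smallest p, the tested neighbours of Crb1 on each side and those within 2 Mb past the threshold, and the 5 genes most like Crb1. Some of these, and some genes overlapping members, are not reported here. Arr3, Crym, Rgr, Kdm5d, Eif2s3y, Xist, the single pigment epithelium markers and the genes overlapping members were named after their values were seen. Positions are from RefSeq GRCm38.p6 and transcripts from GENCODE M21. Alternatives included DESeq2 1.42.0 and limma 3.58.1. The fitting was tested on counts simulated independently for each gene and library. Such counts hold no differences shared by many genes of 1 library. The simulation therefore does not cover how the calls depend on single libraries.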

Additional observations from a re-analysis of the deposited data

Results flagged for a closer look

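In 4 of the 46 groups of 4 libraries examined (23 named genes, each in knockout and control), 1 library stood apart from the other 3 by more than the critical share of the range of the group (Dixon's 95% value for 4), which chance does in about 1 of 20 groups. Mpp5 (Pals1) was at 57.9 CPM in knockout 1, with the other knockout libraries between 72.0 and 74.1 CPM. Ccn1 was at 5.23 CPM in knockout 3, with the others between 3.91 and 4.11 CPM. Pclo was low at 151 CPM in knockout 3, with the others between 191 and 198 CPM, and low at 164 CPM in control 2, with the others between 239.7 and 241 CPM.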

How the results depend on the processing

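Crb1 had log2 fold changes of -1.26 to -1.09 over 21 other settings (-1.26 to -1.19 when 1 library was left out). Mpp3 turned sign, to -0.017 with knockout 3 left out, -0.0094 with control 1 and -0.026 with control 3 left out (range up to 0.084 with control 4 left out), and to -0.064 without the 3 libraries rich in lens transcript. The counts moved more; the cause was not tested. Over all genes 430 became 690 with no filter on low counts, 1392 in DESeq2, 228 in limma-trend on log2(FPKM + 1), 15 without the 3 libraries rich in lens transcript and 267 with the lens sum as covariate, and 108 to 3209 with 1 library left out. For polarity and junction genes, in the same order, 3 became 5, 7, 1, 0 and 0, and 0 to 14. Genes near Crb1 went to 1 in limma-trend on either FPKM scale, 0 without the lens-rich libraries, 1 with the lens covariate, 5 in the wider window and 0 to 2 with 1 library left out. The Crb1 share became 60.7% in the knockout and 73.7% in the control by counts, and 59.6% and 73.6% per coding transcript, where 9 of 14 places in the order of levels stayed; all 14 stayed with any library left out. With the title number as a replicate block the counts were 228 genes in all, 1 polarity or junction gene and 1 gene near Crb1. The labels do not say whether the title numbers pair the libraries. Same-numbered libraries correlated at 0.21, -0.04, 0.12 and 0.01 in their deviations from the group means. Of 4 knockout libraries, 1 correlated best with its own number. These correlations cannot decide the pairing, since the deviations also hold other differences between libraries, such as lens transcript. Over the 23 named genes, 416 of 483 values kept direction and call, 49 lost the call, 14 gained it and 4 reversed. Genes of few counts, such as Crb3 and Cdh3, limit what can be said of them.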
